A study of Homo sapiens with 9 samples.

Results

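The genes described here encode the factors that start protein synthesis (eukaryotic initiation factors, EIF1 to EIF6) and those that extend the chain (eukaryotic elongation factors, EEF1 and EEF2). They were taken by name from a table of 38019 genes as every row beginning with EIF1 to EIF6 or with EEF1 or EEF2. Of 70 such rows, 7 were left out because they encode EIF2 kinases or EIF4E-binding proteins and 4 because they are antisense transcripts, which left 59 factor genes. RNA came from 786-O cells, an established human line of clear cell renal cell carcinoma in which VHL is not functional, so that the hypoxia-inducible factor HIF2α (gene EPAS1) is stable at normal oxygen. All cells carried a lentiviral pLKO.1 vector with a short hairpin RNA (shRNA) and were selected in puromycin, the control cells included. The hairpin was a control in shControl, targeted ARNT in shARNT and targeted BMAL1 in shBMAL1, with 3 libraries per group that are labelled as biological replicates, 9 in all. A single hairpin stood for each target in these libraries, so effects of the target and of the hairpin itself cannot be told apart.

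In initiation, EIF2 brings the initiator tRNA to the small ribosomal subunit as a complex with GTP, and EIF2B recharges EIF2 with GTP after each round. EIF3 is the large scaffold on the small subunit, and the EIF4 factors bind the 5′ cap of the mRNA and unwind it. EIF5 is the GTPase-activating protein of EIF2, and EIF5B and EIF6 act when the subunits join. EEF1A delivers aminoacyl-tRNA to the ribosome, and EEF2 moves the ribosome along by 1 codon. The pathway has known links to oxygen. EIF4E2 is a cap-binding protein that works with HIF2α and RBM4 in hypoxia, EIF3E (INT6) has been linked to the turnover of HIF2α, and EEF2K phosphorylates and inhibits EEF2 when energy or oxygen is short. ARNT is the canonical partner of HIF2α and BMAL1 the partner of CLOCK in the circadian clock, and the study asked how far BMAL1 shares the work of ARNT.

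The libraries held 33793045 to 35444735 reads each. ARNT had 1199 to 1239 normalised read counts in the shARNT libraries and 2187 to 2551 in shControl, and BMAL1 (ARNTL in the files) had 292 to 346 in shBMAL1 and 735 to 797 in shControl, so each target was lowest in the cells with its own hairpin. The RNA of the other target was also somewhat lower under each hairpin, with log2 fold changes of −0.23 for ARNT in shBMAL1 (DESeq2 adjusted p 0.0187) and −0.26 for BMAL1 in shARNT (adjusted p 0.0294). For protein the paper reports the other direction by immunoblot, with slightly more ARNT under the BMAL1 hairpin and slightly more BMAL1 under the ARNT hairpin. The renal markers PAX8, PAX2, KRT8, KRT18, VIM, CDH2 and EPAS1 were present in every library with at least 554 reads. Of the 7 markers of other cell types, PTPRC, CD3E, PECAM1, VWF, ALB and APOA1 had at most 9 reads in any library, whereas CD68 had 5438 to 7885. Mitochondrial protein-coding genes took 4.94% to 6.54% of the reads in shControl, 6.97% to 8.13% in shARNT and 7.93% to 8.60% in shBMAL1. This share moved with the groups, and its part in the results below was not tested.

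The factor genes together took 1.53% to 1.59% of all reads in shControl, 1.52% to 1.55% in shARNT and 1.30% to 1.35% in shBMAL1. The shBMAL1 libraries lay below all others. EEF1A1 made up the larger part of that gap. The share of the other factor genes was 1.27% to 1.30% in shControl, 1.27% to 1.30% in shARNT and 1.17% to 1.20% in shBMAL1. EEF1A1 and EEF2, the most abundant members by reads, made up 37.3% to 38.8% of the factor reads in shControl, 33.9% to 34.7% in shARNT and 29.9% to 31.2% in shBMAL1. Shares of reads are not corrected for transcript length. Per kilobase of the median protein-coding transcript, EEF2 was highest in shControl with 64012 normalised counts, followed by EEF1A1 with 49934. With the longest annotated transcript in its place the values were 35573 and 19124, in the same order. Of the 100-base stretches of EEF1A1, 29.5% occur elsewhere in the annotation, and none of those of EEF2 do. Whether this lowered the count of EEF1A1 was not tested, so the order is not secure.

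Each knockdown was compared with shControl, and shBMAL1 was compared directly with shARNT. A gene was called at a DESeq2 adjusted p under 0.1, with the adjustment made over all genes tested. Under shARNT, 9 of 58 tested factor genes were called lower and 14 higher (15.5% and 24.1%), where 19.0% of all 15163 tested genes were called lower and 16.5% higher. The share lower was close to that of all genes and the share higher somewhat above it. Here and below, all genes were not matched to the factor genes in read level, and genes with more reads are called at smaller changes. Under shBMAL1 the balance was the other way, with 18 factor genes lower and 5 higher (31.0% and 8.62%), where 19.4% of all 19035 tested genes were called lower and 17.4% higher. Without shBMAL1 replicate 2 these counts were 14 and 3. In the direct comparison, 23 were lower in shBMAL1 than in shARNT and 5 were higher (39.7% and 8.62%), where 18.0% of all 18180 tested genes were lower and 17.3% higher. The median log2 fold change of the factor genes was 0.02 under shARNT, −0.11 under shBMAL1 and −0.12 in the direct comparison, and the medians of all tested genes were 0.00, 0.02 and 0.01. Most changes were small. The log2 fold changes ran from −0.32 to 0.69 under shARNT and from −0.97 to 0.71 under shBMAL1. The remaining member, EIF4E1B, had 0 reads throughout, which leaves room for up to 3 counts per library. The counts above include EIF1AY, whose level is not given here. Both knockdowns were compared with the same shControl libraries, so the 2 sets of fold changes are not independent. In bulk RNA, fewer cells with a transcript and less of it per cell cannot be told apart.

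**Figure D1:**
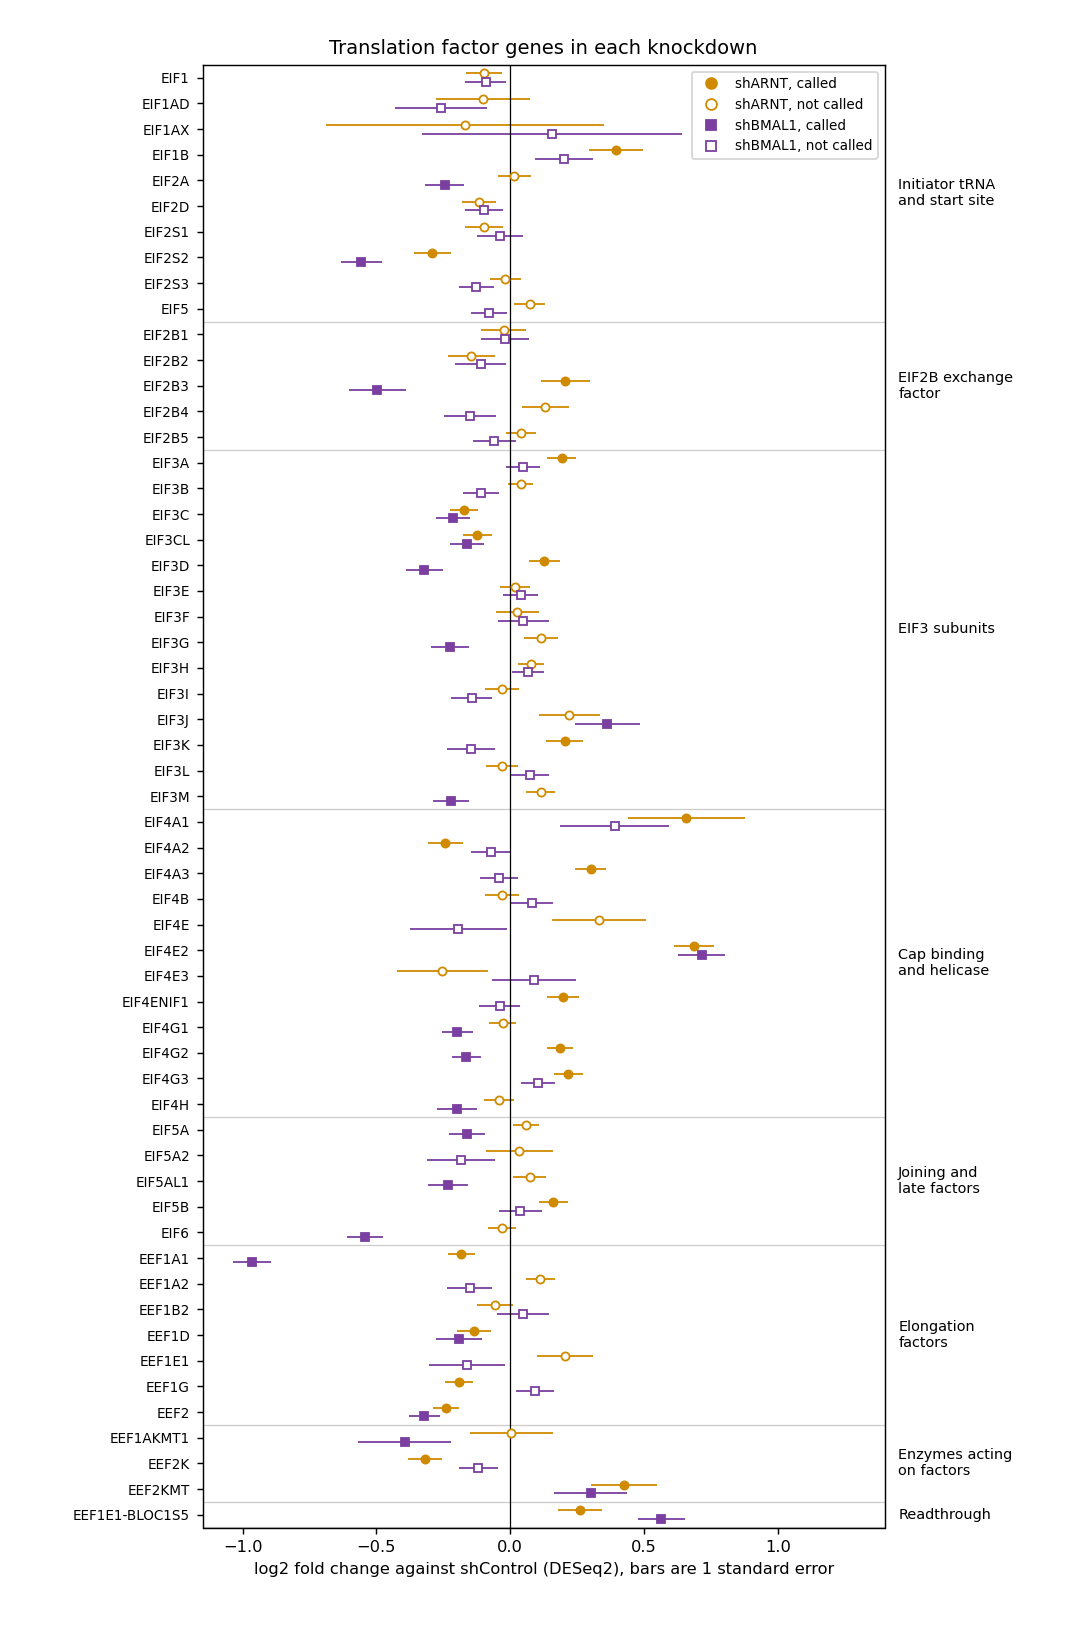
Log2 fold change against shControl (x axis, DESeq2, bars are 1 standard error) of the tested factor genes other than EIF1AY, grouped by role, with shARNT in ochre circles and shBMAL1 in purple squares, filled where called at an adjusted p under 0.1. EEF1A1 lies farthest to the left under shBMAL1 at −0.97, EIF4E2 lies at 0.69 and 0.71 in the 2 knockdowns, and EIF2B3 lies on opposite sides of 0.

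CLOCK with BMAL1 is known to bind the E-box, and HIF2α with ARNT the core of the hypoxia response element (HRE). The 250 bases before the annotated start were therefore read for 48 factor genes that had an entry in the RefSeq promoter table (build GRCh38.p14). The E-box was searched as CACGTG and the HRE core as ACGTG or GCGTG on both strands. Every E-box also holds the HRE core on both strands. An E-box stood in 11 of the 48 windows (22.9%) and in 6.34% of the 35116 promoters of the table, and an HRE core in 32 of 48 (66.7%) and in 43.2% of all. That background held every entry of the table, whether expressed or not, whereas each factor gene had a single window. The shares were not matched for base composition, and its part in the gap was not tested. Of the 46 tested members with a window, EIF1AY left out, an E-box stood in 3 of the 13 that were lower under shBMAL1, in 0 of the 3 that were higher and in 8 of the 30 that were not called. An HRE core stood in 4 of the 6 members lower under shARNT, in 8 of the 12 higher and in 20 of the 28 not called. Under shBMAL1 an HRE core stood in 9 of the 13 lower, in 3 of the 3 higher and in 20 of the 30 not called. Under shARNT an E-box stood in 1 of the 6 lower, in 4 of the 12 higher and in 6 of the 28 not called. These matches are letters in a window and do not show binding.

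The windows of 5 members whose counts differ in kind are printed 5′ to 3′ on the strand of the gene, with matches to either motif in capitals. EIF2B3 (chr1:44986596-44986845, minus strand) and EIF4G1 (chr3:184314356-184314605, plus strand) were lower under shBMAL1 and hold 1 and 2 E-boxes, and EIF4E (chr4:98929134-98929383, minus strand) also holds 2 but was called against shControl in neither knockdown by DESeq2. EIF6 (chr20:35284718-35284967, minus strand), which was lower under shBMAL1, holds HRE cores and no E-box. EIF4E2 (chr2:232550439-232550688, plus strand), which was higher in both knockdowns, holds 1 HRE core and no E-box.
EIF2B3: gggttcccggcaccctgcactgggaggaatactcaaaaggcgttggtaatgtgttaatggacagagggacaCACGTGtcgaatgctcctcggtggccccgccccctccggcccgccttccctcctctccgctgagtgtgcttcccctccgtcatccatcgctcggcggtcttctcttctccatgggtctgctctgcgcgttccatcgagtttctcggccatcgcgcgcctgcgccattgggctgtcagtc
EIF4G1: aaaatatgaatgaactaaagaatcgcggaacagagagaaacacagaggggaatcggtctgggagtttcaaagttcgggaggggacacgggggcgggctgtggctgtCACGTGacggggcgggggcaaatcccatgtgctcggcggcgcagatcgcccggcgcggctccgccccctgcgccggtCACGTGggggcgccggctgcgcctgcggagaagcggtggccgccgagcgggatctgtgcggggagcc
EIF4E: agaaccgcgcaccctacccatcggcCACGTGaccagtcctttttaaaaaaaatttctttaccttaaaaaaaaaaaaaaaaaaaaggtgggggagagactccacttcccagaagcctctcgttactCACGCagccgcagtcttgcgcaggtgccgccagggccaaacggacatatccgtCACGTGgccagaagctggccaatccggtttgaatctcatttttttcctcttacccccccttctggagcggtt
EIF6: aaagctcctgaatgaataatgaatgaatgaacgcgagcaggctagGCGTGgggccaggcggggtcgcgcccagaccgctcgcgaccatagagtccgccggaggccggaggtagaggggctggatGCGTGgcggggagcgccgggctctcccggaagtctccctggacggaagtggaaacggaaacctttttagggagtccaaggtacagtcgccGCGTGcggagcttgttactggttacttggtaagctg
EIF4E2: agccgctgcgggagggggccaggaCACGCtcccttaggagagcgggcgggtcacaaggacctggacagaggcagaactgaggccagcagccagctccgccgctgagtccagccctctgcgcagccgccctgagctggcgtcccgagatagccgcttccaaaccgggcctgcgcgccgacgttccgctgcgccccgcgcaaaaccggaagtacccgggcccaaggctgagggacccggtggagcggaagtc

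Of the 11 genes that handle the initiator tRNA and the start site, 1 was lower and 1 higher under shARNT, and 2 were lower and 1 higher under shBMAL1. These shares are below those of all genes (19.0% and 16.5%, and 19.4% and 17.4%). EIF2S2, which encodes the β subunit of EIF2 (GRCh37 chromosome 20, 32676115 to 32700049, minus strand), had 2186, 2204 and 2257 normalised read counts in the 3 shControl libraries, 1694, 1783 and 1946 in shARNT, and 1408, 1526 and 1594 in shBMAL1. The 3 groups did not overlap. The log2 fold change of EIF2S2 was −0.29 under the ARNT hairpin (SE 0.07, adjusted p 0.000222) and −0.56 under the BMAL1 hairpin (SE 0.08, adjusted p 1.46e-11), so that it fell by 18.3% and fell by 32.0%. Of the 100-base stretches of EIF2S2, 15.4% are shared with other loci, mainly the pseudogene EIF2S2P4. Its direct difference of −0.26 (adjusted p 0.00984) was no longer called without shARNT replicate 3, at −0.21 (adjusted p 0.107). The other subunits of EIF2 were not called. EIF2S1, the α subunit that the stress kinases phosphorylate, had 1518, 1452 and 1420 counts in shControl, 1368, 1317 and 1406 in shARNT, and 1312, 1429 and 1536 in shBMAL1. The shARNT libraries of EIF2S1 lay just below shControl and the shBMAL1 libraries overlapped both. Neither difference from shControl was called, with −0.10 (SE 0.07, adjusted p 0.325) in shARNT and −0.04 (SE 0.09, adjusted p 0.792) in shBMAL1. EIF2S3, the γ subunit, gave −0.02 and −0.13 (adjusted p 0.855 and 0.144).

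EIF1B, a close relative of the start-site factor EIF1, had 575, 523 and 626 counts in shControl, 709, 748 and 805 in shARNT, and 694, 657 and 631 in shBMAL1. All 6 knockdown libraries lay above shControl. The log2 fold change of EIF1B was 0.40 under shARNT (SE 0.10, adjusted p 0.000685) and 0.20 under shBMAL1 (SE 0.11, adjusted p 0.158), and the direct difference of −0.19 was not called (adjusted p 0.142). EIF2A, an alternative carrier of initiator tRNA, went from 3685 to 3952 counts in shControl and 3678 to 4127 in shARNT down to 3016 to 3470 in shBMAL1. It fell by 0.25 under shBMAL1 (SE 0.07, adjusted p 0.00437) and differed directly by −0.26 (adjusted p 0.00406). EIF1 itself, the gatekeeper of start-site choice, was not called, at −0.10 and −0.09 (adjusted p 0.289 and 0.401). EIF5, the GTPase-activating protein of EIF2, was called only in the direct comparison (−0.15, adjusted p 0.0797), and leaving out any single library of the 6 ended that call, with adjusted p values between 0.116 and 0.206. EIF1AX had only 11.8 to 23.5 counts per library, too few to show a change of the size seen in the other members. Whether the counting placed reads of EIF1AX elsewhere was not tested, so these counts need not show its level.

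EIF2B recharges EIF2 and is built from EIF2B1 to EIF2B5. Of its 5 genes, EIF2B3 was the 1 called against shControl, higher under shARNT and lower under shBMAL1, where 16.5% of all genes were higher and 19.4% lower. EIF2B3 (γ subunit, GRCh37 chromosome 1, 45316194 to 45452394, minus strand) had 710, 769 and 801 counts in shControl, 819, 895 and 910 in shARNT, and 581, 498 and 539 in shBMAL1. All shBMAL1 libraries lay below shControl and all shARNT libraries above it. It fell by 0.50 under shBMAL1 (SE 0.11, adjusted p 2.47e-05) and by 0.70 from shARNT to shBMAL1 (SE 0.10, adjusted p 2.24e-10), and both calls held without each library. The rise of EIF2B3 under shARNT, 0.21 (SE 0.09, adjusted p 0.0707), was weaker and was lost without shControl replicate 1 (0.16, adjusted p 0.301) or 2 (0.21, adjusted p 0.141) and without shARNT replicate 2 (0.19, adjusted p 0.219) or 3 (0.18, adjusted p 0.246). EIF2B4 differed only between the knockdowns (−0.28, adjusted p 0.0139), with 1517 to 1811 counts in shARNT and 1231 to 1480 in shBMAL1, and that call was lost without shARNT replicate 1 (adjusted p 0.148) or shBMAL1 replicate 2 (adjusted p 0.114). EIF2B1, EIF2B2 and EIF2B5 were called in no comparison, with log2 fold changes between −0.15 and 0.04 in the knockdowns.

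Of the 14 EIF3 genes, 2 were lower and 3 higher under shARNT, 5 were lower and 1 higher under shBMAL1, and 6 were lower and 0 higher in the direct comparison. The counts under shARNT are near the shares of all genes (19.0% lower and 16.5% higher), and 19.4% of all genes were lower under shBMAL1 and 18.0% directly. EIF3D, a subunit that can itself bind the cap of some mRNAs, had 10548, 12188 and 11537 counts in shControl, 12953, 12163 and 12251 in shARNT, and 9348, 8838 and 9279 in shBMAL1. The shBMAL1 libraries lay below all others, and shControl and shARNT overlapped. EIF3D fell by 0.32 under shBMAL1 (SE 0.07, adjusted p 2.4e-05) and by 0.45 from shARNT to shBMAL1 (SE 0.06, adjusted p 3.32e-12). Its small rise under shARNT (0.13, SE 0.06, adjusted p 0.0836) was lost without any of 5 of the 6 libraries, with adjusted p values between 0.116 and 0.434, and it was not called by edgeR (adjusted p 0.114).

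EIF3G and EIF3M, a pair of smaller subunits, were lower under shBMAL1 by 0.23 and 0.22 on the log2 scale (adjusted p 0.00716 and 0.00461) and also lower than in shARNT (−0.34 and −0.33, adjusted p 2.55e-05 and 3.91e-05). In both genes every shBMAL1 library lay below every other library. EIF3K was higher under shARNT (0.20, SE 0.07, adjusted p 0.0175), a call lost without shControl replicate 1 (0.14, adjusted p 0.177) or shARNT replicate 2 (0.15, adjusted p 0.156), and lower in shBMAL1 than in shARNT (log2 −0.35, adjusted p 0.000314). EIF3A, the largest subunit, was higher under shARNT, with 17452 to 18599 counts against 15161 to 16924 in shControl (0.19, SE 0.05, adjusted p 0.00239), and its 15992 to 16724 counts in shBMAL1 were not called against shControl (0.05, adjusted p 0.648). EIF3C and the near-identical EIF3CL were lower in both knockdowns, but the calls of EIF3CL were not stable. Its fall under shARNT (−0.12, adjusted p 0.0698) was lost without any of 4 libraries (shControl replicate 1 or 2, shARNT replicate 2 or 3), with adjusted p values between 0.121 and 0.342, and that under shBMAL1 (−0.16, adjusted p 0.0369) without shControl replicate 2 (adjusted p 0.182) or shBMAL1 replicate 2 (adjusted p 0.177). These 2 rows share 97.0% of their 100-base stretches, so reads cannot be assigned to either with certainty. Summed into 1 row, a choice made after seeing the data, they fell by 0.15 under shARNT (adjusted p 0.0147) and by 0.19 under shBMAL1 (adjusted p 0.00996).

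EIF3J, a loosely bound subunit, was the EIF3 gene that rose under shBMAL1. It had 653, 536 and 725 counts in shControl, 736, 684 and 806 in shARNT, and 720, 893 and 852 in shBMAL1. The groups of EIF3J overlapped, and the rise of 0.36 (SE 0.12, adjusted p 0.0127) was lost without shControl replicate 2 (0.25, adjusted p 0.137) or shBMAL1 replicate 2 (0.30, adjusted p 0.102). EIF3E, the subunit linked to HIF2α, had 11380, 10755 and 10469 counts in shControl, 10794, 10529 and 11625 in shARNT, and 10551, 11713 and 11294 in shBMAL1. All 3 groups of EIF3E overlapped, and neither difference from shControl was called, with 0.02 (SE 0.06, adjusted p 0.856) in shARNT and 0.04 (SE 0.07, adjusted p 0.717) in shBMAL1. EIF3F, EIF3H, EIF3I and EIF3L were called in no comparison, and EIF3B was called only between the knockdowns (−0.14, adjusted p 0.0911), a call lost without any of 5 of the 6 libraries.

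**Figure D2:**
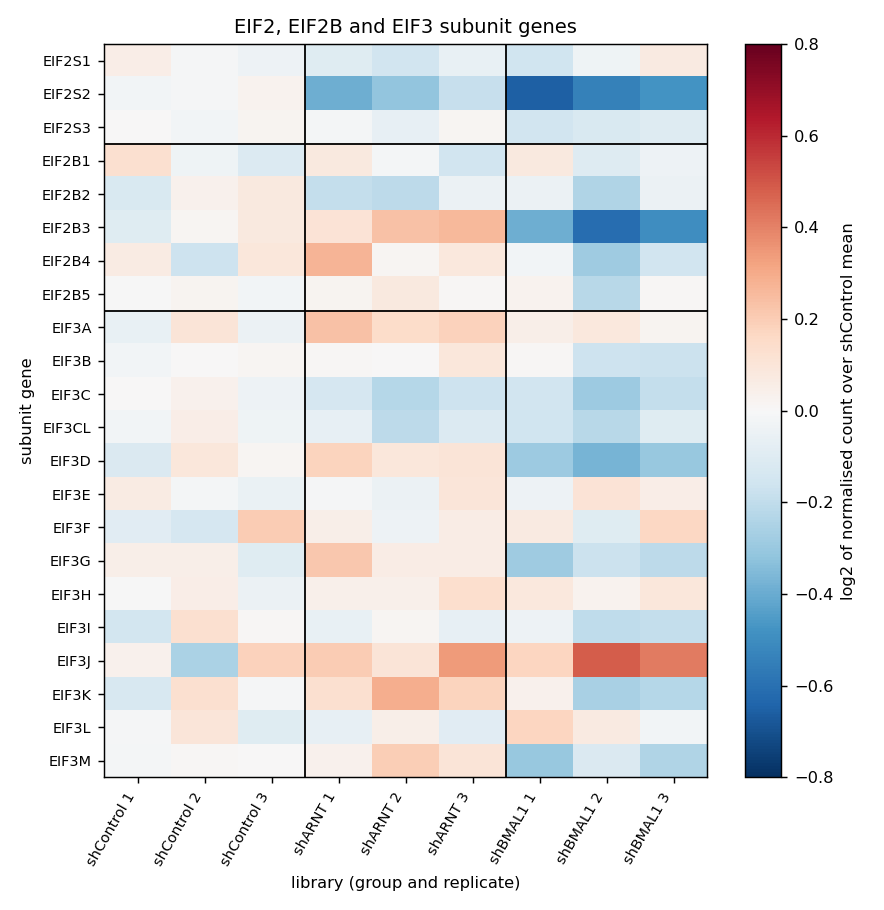
Log2 of each library's normalised read count over the mean of the 3 shControl libraries (colour, red higher and blue lower) for the subunit genes of EIF2, EIF2B and EIF3 (rows) in the 9 libraries (columns). EIF2S2 is blue in all 6 knockdown libraries, EIF2B3 and EIF3D are red in shARNT and blue in shBMAL1, and EIF3E stays near 0.

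Of the 12 tested cap-binding and helicase genes, 1 was lower and 6 were higher under shARNT. Under shBMAL1, 3 were lower and 1 higher, and in the direct comparison 5 were lower and 1 higher. The shares of all genes lower and higher were 19.0% and 16.5% under shARNT, 19.4% and 17.4% under shBMAL1, and 18.0% and 17.3% directly. The 6 include the EIF4A1 row, whose call was lost without 1 library and with summed rows. EIF4E2 (also 4EHP), the cap-binding protein that works with HIF2α in hypoxia, showed the largest rise of all factor genes in both knockdowns. Under shARNT the EIF4A1 row came close at 0.66. With single libraries left out it reached up to 0.82, where EIF4E2 reached up to 0.73. On GRCh37 EIF4E2 lies at chromosome 2, 233415369 to 233448354, on the plus strand. EIF4E2 had 1536, 1771 and 1819 counts in shControl, 2616, 2756 and 2859 in shARNT, and 3084, 2686 and 2657 in shBMAL1. Every knockdown library lay well above every shControl library, and the knockdown groups overlapped. The log2 fold change was 0.69 under shARNT (SE 0.07, adjusted p 9.46e-19) and 0.71 under shBMAL1 (SE 0.09, adjusted p 1.83e-14), a rise of 60.9% and of 64.1%, and both calls held without each library. The direct difference was 0.03 (SE 0.08, adjusted p 0.82). An annotated transcript overlaps EIF4E2 on the other strand, and the strand setting of the counting is not given in the sources used here. RBM4, its partner in hypoxia, was not called, at 0.03 and 0.12 (adjusted p 0.77 and 0.224).

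EIF4E, the main cap-binding protein, was low in reads, with 165, 170 and 197 counts in shControl, 177, 253 and 238 in shARNT, and 135, 165 and 165 in shBMAL1. Against shControl it was not called, at 0.33 (SE 0.18, adjusted p 0.148) under shARNT and −0.19 (SE 0.18, adjusted p 0.472) under shBMAL1. The value of EIF4E under shARNT did pass with edgeR (0.33, adjusted p 0.0888) and without shARNT replicate 1 (0.47, adjusted p 0.049). The knockdown groups of EIF4E did not overlap and differed directly by −0.52 (SE 0.18, adjusted p 0.0187), a call lost without shARNT replicate 2 (adjusted p 0.158) or 3 (adjusted p 0.109) or shBMAL1 replicate 1 (adjusted p 0.108). Of the stretches of EIF4E, 17.1% are shared with other loci, mainly a pseudogene. EIF4ENIF1, which carries EIF4E into the nucleus, was higher under shARNT (0.20, SE 0.06, adjusted p 0.0064) and lower in shBMAL1 than in shARNT (log2 −0.23, adjusted p 0.00634).

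The scaffold genes EIF4G1, EIF4G2 and EIF4G3 differed from each other. EIF4G1, the main scaffold between cap and ribosome, had 39783, 39523 and 37711 counts in shControl, 40510, 36835 and 37157 in shARNT, and 35626, 33210 and 33364 in shBMAL1. The shBMAL1 libraries of EIF4G1 lay below all others. It fell by 0.20 under shBMAL1 (SE 0.06, adjusted p 0.00402) and was not called under shARNT (−0.03, SE 0.05, adjusted p 0.742). The direct difference of −0.17 (adjusted p 0.0304) was lost without shARNT replicate 1 (−0.12, adjusted p 0.195) or shBMAL1 replicate 2 (−0.15, adjusted p 0.121). EIF4G2 (DAP5), which supports initiation without EIF4E, rose by 0.19 under shARNT (SE 0.05, adjusted p 0.000691), from 38934 to 40308 counts in shControl to 43372 to 47341, and fell to 34538 to 36283 counts under shBMAL1 (−0.16, SE 0.06, adjusted p 0.0123). The 3 groups of EIF4G2 did not overlap, and the direct difference was −0.35 (adjusted p 7.55e-08). EIF4G3 was higher under shARNT (0.22, SE 0.06, adjusted p 0.000578) but was not called in shBMAL1 (0.10, adjusted p 0.214) or directly (−0.11, adjusted p 0.212).

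Among the helicase genes, EIF4A3, which also sits in the exon junction complex, had 5864, 5772 and 5270 counts in shControl, 6698, 6955 and 7128 in shARNT, and 5559, 5714 and 5166 in shBMAL1. The shARNT libraries lay above all others. EIF4A3 rose by 0.30 under shARNT (SE 0.06, adjusted p 1.73e-06), was not called in shBMAL1 (−0.04, SE 0.07, adjusted p 0.719) and differed directly by −0.34 (adjusted p 2.55e-06). EIF4A2, a close relative of EIF4A1 that acts at the cap, had 5490, 5822 and 5017 counts in shControl, 4398, 4892 and 4483 in shARNT, and 4955, 5155 and 5450 in shBMAL1. It moved the other way, falling by 0.24 under shARNT (SE 0.07, adjusted p 0.00146), but was not called in shBMAL1 (−0.07, SE 0.07, adjusted p 0.524). The direct difference of EIF4A2 (0.17, adjusted p 0.0448) was lost without shARNT replicate 1 (adjusted p 0.216) or 3 (adjusted p 0.183) or shBMAL1 replicate 3 (adjusted p 0.193).

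EIF4A1, the most used helicase of the cap complex, needs a caution. Its row held 142, 142 and 133 counts in shControl, 167, 178 and 313 in shARNT, and 228, 182 and 137 in shBMAL1, which is 0.650% to 1.48% of the reads of EIF4A1 and the readthrough row SENP3-EIF4A1 together. All of its 100-base stretches are shared with at least 1 other annotated gene, and the readthrough overlaps its exons. The rise of the EIF4A1 row under shARNT (0.66, SE 0.22, adjusted p 0.012) was lost without shARNT replicate 3 (0.31, adjusted p 0.312). With the 2 rows summed, a choice made after seeing the data, the locus was not called under shARNT (0.07, adjusted p 0.299), fell by 0.30 under shBMAL1 (adjusted p 5.8e-06), where the EIF4A1 row alone gave 0.39 (adjusted p 0.138, and 0.0635 with edgeR), and differed directly by −0.36 (adjusted p 3.42e-10). EIF4H, a helper of the helicase, was lower under shBMAL1 (−0.20, adjusted p 0.0269), a call lost without shBMAL1 replicate 2 (−0.13, adjusted p 0.194). EIF4B, another helper, and EIF4E3 were called in no comparison.

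Of the 5 genes of subunit joining and later steps, 0 were lower and 1 was higher under shARNT, and 3 were lower and 0 higher under shBMAL1. Of all genes, 16.5% were higher under shARNT, near the 1 of 5 here, and 19.4% lower under shBMAL1. EIF6, which keeps the large subunit from joining too early and is needed to make it (GRCh37 chromosome 20, 33866710 to 33872788, minus strand), had 11832, 12118 and 11782 counts in shControl, 11480, 12270 and 11148 in shARNT, and 8890, 7876 and 7776 in shBMAL1. All 3 shBMAL1 libraries lay below the other 6, which overlapped. EIF6 fell by 0.54 under shBMAL1 (SE 0.07, adjusted p 2.56e-14), which means that it fell by 31.4%, and was not called under shARNT (−0.03, SE 0.05, adjusted p 0.716). The direct difference was −0.51 (SE 0.07, adjusted p 1.51e-11), and both calls held without each library. Of its stretches, 19.1% are shared, mainly with an annotated gene that overlaps it on the same strand. EIF5A, the hypusine-bearing factor that helps ribosomes through difficult stretches, and its copy EIF5AL1 were both lower under shBMAL1 (−0.16 and −0.23, adjusted p 0.0516 and 0.00841). The call of EIF5A was lost without any of 4 libraries (shControl replicate 1 or 2, shBMAL1 replicate 2 or 3), with adjusted p values between 0.104 and 0.258, whereas the 2 rows summed fell by 0.19 (adjusted p 0.0153). Of their 100-base stretches, 12.53% of EIF5A and 7.69% of EIF5AL1 occur in other annotated genes. EIF5B, the GTPase of subunit joining, was higher under shARNT (0.16, SE 0.05, adjusted p 0.0139), a call lost without shControl replicate 2 (0.13, adjusted p 0.112).

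Elongation factor genes were called lower or not at all against shControl, with 4 of 7 lower under shARNT and 3 of 7 lower under shBMAL1, where 19.0% and 19.4% of all genes were lower. Both counts include EEF1D, whose calls were lost without single libraries, and the EEF1E1 locus was called higher in both knockdowns once its rows were summed. EEF1A1, the most used carrier of aminoacyl-tRNA (GRCh37 chromosome 6, 74199031 to 74235310, minus strand), showed the largest change of all factor genes. It had 101094, 101412 and 91930 counts in shControl, 85934, 86597 and 86354 in shARNT, and 54076, 46545 and 50400 in shBMAL1. The 3 groups did not overlap, and shBMAL1 lay far below the other 2. EEF1A1 fell by 0.18 under shARNT (SE 0.05, adjusted p 0.00131) and by 0.97 under shBMAL1 (SE 0.07, adjusted p 1e-40), so that it fell by 11.9% and fell by 48.8%. From shARNT to shBMAL1 it fell by 0.78 (SE 0.06, adjusted p 1.55e-31), and the 3 calls held without each library. Of the 100-base stretches of EEF1A1, 29.5% occur elsewhere in the annotation, mainly in the pseudogene EEF1A1P5, and how reads with several matches were counted is not given in the sources used here.

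EEF1A2, the variant of EEF1A known from muscle and nerve and from some tumours, was not called against shControl, at 0.11 (SE 0.05, adjusted p 0.109) under shARNT and −0.15 (SE 0.08, adjusted p 0.165) under shBMAL1. It was lower in shBMAL1 than in shARNT, with 9602 to 12115 counts against 12896 to 13837 (−0.26, SE 0.08, adjusted p 0.00646). Its share of the reads of EEF1A1 and EEF1A2 together was 10.5% to 12.4% in shControl, 13.0% to 13.8% in shARNT and 17.1% to 19.4% in shBMAL1. Those groups did not overlap, and the share moved with the fall of EEF1A1.

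EEF2, the translocase (GRCh37 chromosome 19, 3976054 to 3985461, minus strand), had 111810, 116314 and 108898 counts in shControl, 99858, 93587 and 91486 in shARNT, and 93121, 85955 and 91151 in shBMAL1. Every knockdown library lay below every shControl library, and the 2 knockdown groups overlapped. EEF2 fell by 0.24 under shARNT (SE 0.05, adjusted p 1.22e-05) and by 0.32 under shBMAL1 (SE 0.06, adjusted p 7.72e-07). The knockdowns differed by −0.08 (SE 0.06, adjusted p 0.378), which was not called. None of its stretches is shared. EEF2K, the kinase that inhibits EEF2, had 2491, 2547 and 2628 counts in shControl, 2087, 1936 and 2112 in shARNT, and 2412, 2448 and 2207 in shBMAL1. The shARNT libraries lay below all others. EEF2K fell by 0.32 under shARNT (SE 0.06, adjusted p 7.01e-06) but was not called in shBMAL1 (−0.12, SE 0.07, adjusted p 0.224). Its direct difference of 0.20 (adjusted p 0.0292) was lost without shARNT replicate 2 (0.16, adjusted p 0.186) or shBMAL1 replicate 2 (0.17, adjusted p 0.137).

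EEF1B2, EEF1D and EEF1G form the exchange factor that recharges EEF1A. EEF1G had 14772, 14979 and 16101 counts in shControl, 13101, 13913 and 13023 in shARNT, and 17628, 16244 and 15089 in shBMAL1. The shARNT libraries lay below all others, and shControl and shBMAL1 overlapped. EEF1G fell by 0.19 under shARNT (SE 0.05, adjusted p 0.00147), was not called in shBMAL1 (0.09, SE 0.07, adjusted p 0.355) and was higher in shBMAL1 than in shARNT (log2 0.29, adjusted p 0.00021). Of its stretches, 95.5% also belong to an annotated readthrough transcript. EEF1D was lower in both knockdowns by small amounts (−0.14 and −0.19, adjusted p 0.0891 and 0.0756). Those calls of EEF1D rested on single libraries, since without shControl replicate 2 they became −0.07 (adjusted p 0.478) and −0.13 (adjusted p 0.351), without shBMAL1 replicate 2 the second was −0.10 (adjusted p 0.402), and without shARNT replicate 1, 2 or 3 the first had adjusted p values of 0.102, 0.372 and 0.105. EEF1B2 was called in no comparison.

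**Figure D3:**
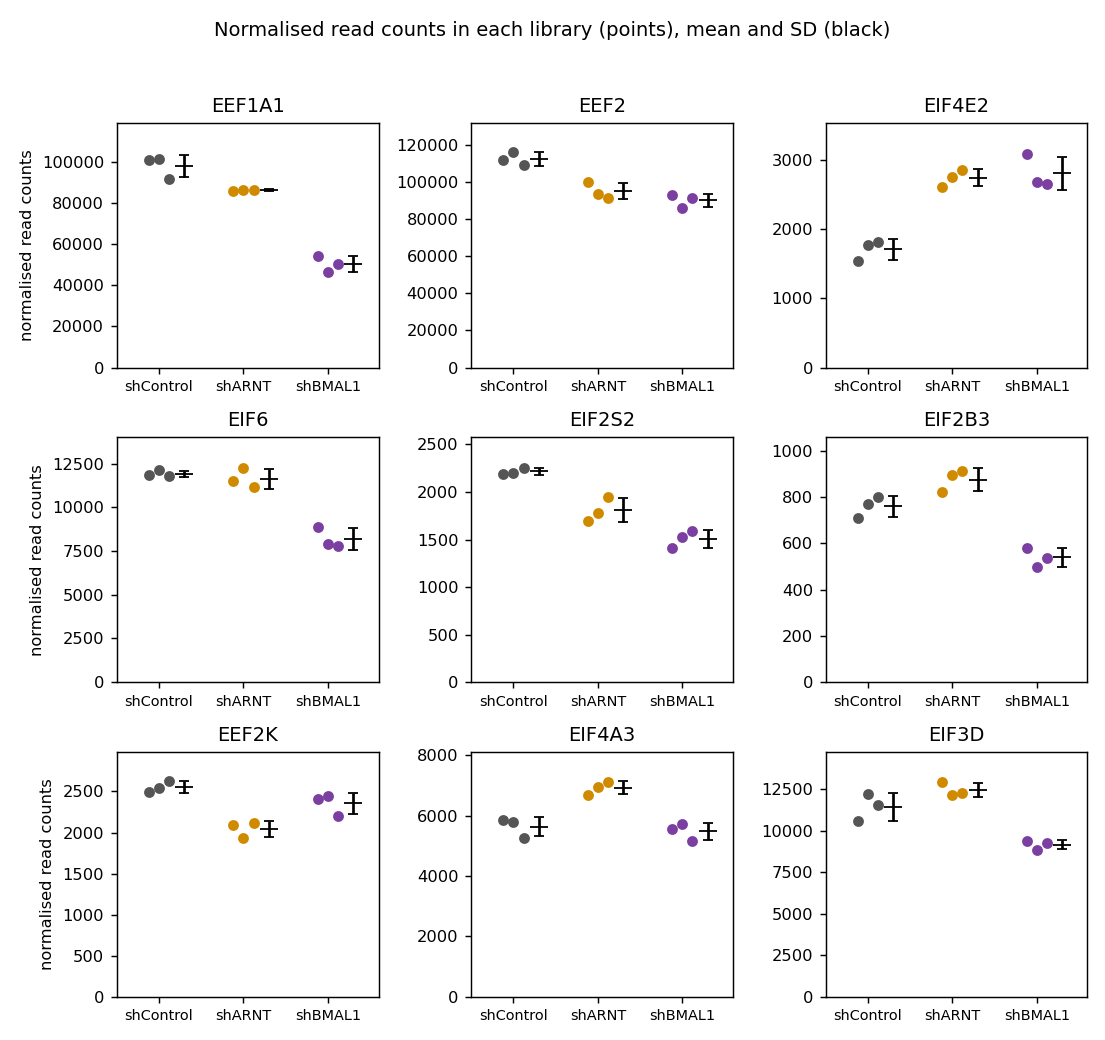
Normalised read counts (y axis, from 0) of 9 factor genes in each library, with points for single libraries and black bars for the mean and SD of the 3 libraries of a group. EEF1A1 and EIF6 are lowest in shBMAL1, EIF4E2 is higher in both knockdowns, and EEF2K is lowest in shARNT.

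EEF1E1 (AIMP3), a scaffold protein of the tRNA synthetase complex, shares 31.0% of its 100-base stretches, mainly with the readthrough row EEF1E1-BLOC1S5, of which 85.5% are shared. EEF1E1-BLOC1S5 had 1111, 1033 and 1181 counts in shControl, 1239, 1335 and 1399 in shARNT, and 1532, 1678 and 1712 in shBMAL1. The 3 groups did not overlap, and the row rose by 0.26 (SE 0.08, adjusted p 0.00755) and by 0.56 (SE 0.09, adjusted p 1.5e-09), with a direct difference of 0.31 (adjusted p 0.00166). The EEF1E1 row itself was lower in shBMAL1 than in shARNT (log2 −0.36, adjusted p 0.0297), a call lost without shARNT replicate 3 (adjusted p 0.122) or shBMAL1 replicate 1 (adjusted p 0.203). With both rows summed the locus rose by 0.24 in shARNT (adjusted p 0.00295) and by 0.37 in shBMAL1 (adjusted p 7.66e-05), and the direct difference was not called (0.13, adjusted p 0.266).

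The methyltransferase genes of the elongation factors had few reads. EEF2KMT, which methylates EEF2, had 295, 356 and 315 counts in shControl, 405, 461 and 429 in shARNT, and 435, 400 and 356 in shBMAL1. All 6 knockdown libraries of EEF2KMT lay above shControl, though the lowest shBMAL1 library (356.4) was barely above the highest shControl library (355.9), and the knockdown groups overlapped. It rose by 0.43 under shARNT (SE 0.12, adjusted p 0.00341). The rise of EEF2KMT under shBMAL1 (0.30, SE 0.14, adjusted p 0.076) was lost without any of 4 libraries (shControl replicate 1 or 3, shBMAL1 replicate 1 or 2), with adjusted p values between 0.177 and 0.282. EEF1AKMT1, which methylates EEF1A, had 325, 284 and 226 counts in shControl, 269, 255 and 312 in shARNT, and 193, 252 and 192 in shBMAL1. The shControl libraries of EEF1AKMT1 overlapped with both knockdowns, which did not overlap with each other. The fall under shBMAL1 (−0.39, SE 0.17, adjusted p 0.0689) was lost without any of 4 libraries (shControl replicate 1 or 2, shBMAL1 replicate 1 or 3), with adjusted p values between 0.167 and 0.349. The direct difference (−0.40, adjusted p 0.0495) was likewise lost without shARNT or shBMAL1 replicate 1 or 3.

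Many elongation factor mRNAs begin with a terminal oligopyrimidine (TOP) tract, through which mTORC1 controls their translation. Of the 9 members known to carry it (EEF1A1, EEF1B2, EEF1D, EEF1G, EEF2, EIF3E, EIF3F, EIF3H and EIF4B), 4 were lower and 0 higher under shARNT, and 3 were lower and 0 higher under shBMAL1, where 19.0% and 19.4% of all genes were lower. The median log2 fold changes of these 9 were −0.06 and 0.05. EEF1A1, EEF1D and EEF2 were the 3 lower under shBMAL1, and the other 6 ranged from 0.04 to 0.09.

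The other genes of the pathway were read from lists. Of the 6 genes of EIF2 kinases and phosphatase subunits, 4 were lower and 0 higher in each knockdown, with medians of −0.19 and −0.35. Of all genes tested, 19.0% were lower and 16.5% higher under shARNT, and 19.4% and 17.4% under shBMAL1, against which the counts of every list below are to be read. EIF2AK2 (PKR), the kinase that senses double-stranded RNA, had 1571 to 1669 counts in shControl, 1068 to 1124 in shARNT and 936 to 1152 in shBMAL1, a fall by 0.56 and by 0.63 (adjusted p 2.38e-13 and 1.44e-10). PPP1R15A (GADD34), which brings the phosphatase to EIF2, fell by 0.41 and 0.83 (adjusted p 7.54e-07 and 7.34e-21) and differed directly (−0.42, adjusted p 9.94e-05). EIF2AK4 (GCN2), the sensor of uncharged tRNA, fell by 0.25 and 0.51 (adjusted p 2.77e-05 and 1.54e-14).

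Of the regulators of cap binding, 4 of 15 tested were lower and 3 higher under shARNT, and 7 of 16 lower and 4 higher under shBMAL1. The number higher is near the share of all genes under shARNT (16.5%) and somewhat above it under shBMAL1 (17.4%). Of all genes, 19.0% and 19.4% were lower. EIF4EBP1, which blocks EIF4E when mTORC1 is off, had 1051 to 1118 counts in shControl, 642 to 699 in shARNT and 516 to 675 in shBMAL1, a fall by 0.69 and by 0.84 (adjusted p 1.17e-14 and 9.6e-14). MKNK2, a kinase of EIF4E, fell by 0.63 and 0.93 (adjusted p 8.77e-31 and 2.05e-35), and PDCD4, an inhibitor of EIF4A, rose by 0.39 and 0.49 (adjusted p 3.93e-06 and 5.02e-06). These 3 genes were named for the size of their change, so the lack of overlap of their knockdown libraries with shControl is not a separate result.

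Of the 9 genes of mTORC1 and S6 kinase, 1 was lower and 4 higher under shARNT, 4 were lower and 0 higher under shBMAL1, and 7 were lower and 0 higher in the direct comparison, where 18.0% of all genes were lower. Under shARNT 16.5% of all genes were higher and under shBMAL1 19.4% were lower. RHEB, the GTPase that activates mTORC1, had 1870 to 2194 counts in shControl, 2041 to 2206 in shARNT and 1314 to 1458 in shBMAL1, a fall by 0.57 under shBMAL1 (adjusted p 1.23e-09) with no call under shARNT (0.05, adjusted p 0.704). RPTOR and MTOR, subunits of the complex, also fell under shBMAL1 (−0.38 and −0.29, adjusted p 2.25e-06 and 0.000177). TSC1, which restrains RHEB, rose by 0.36 under shARNT (adjusted p 3.92e-06) and TSC2, its partner, fell by 0.31 (adjusted p 8.99e-07). TSC2 was also lower under shBMAL1 (−0.19, adjusted p 0.0434).

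Of the 22 cytosolic aminoacyl-tRNA synthetase genes and their scaffolds, 12 were lower and 4 higher under shARNT, and 12 were lower and 0 higher under shBMAL1, where 19.0% and 19.4% of all genes were lower. The 4 higher are near the share of all genes under shARNT (16.5%). GARS, the glycine enzyme, fell by 0.57 and 0.42 (adjusted p 6.77e-25 and 1.94e-11), and VARS, the valine enzyme, by 0.41 and 0.67 (adjusted p 1.07e-17 and 2.89e-30). Between the knockdowns 8 were lower and 7 higher in shBMAL1, where 18.0% and 17.3% of all genes were. Of the 8 termination and recycling factors, 1 was lower and 1 higher under shARNT, and 3 were lower and 0 higher under shBMAL1. Of those 3, PELO, which rescues stalled ribosomes, fell by 0.39 (adjusted p 0.000715). Of the 9 enzymes that make hypusine on EIF5A or diphthamide on EEF2, 1 was lower and 2 higher under shARNT and 1 was lower and 1 higher under shBMAL1. DPH1, which starts diphthamide synthesis, rose in both (0.40 and 0.52, adjusted p 7.5e-05 and 3.91e-07), and DHPS, which makes hypusine, fell in both (−0.20 and −0.19, adjusted p 0.00979 and 0.0415).

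**Figure D4:**
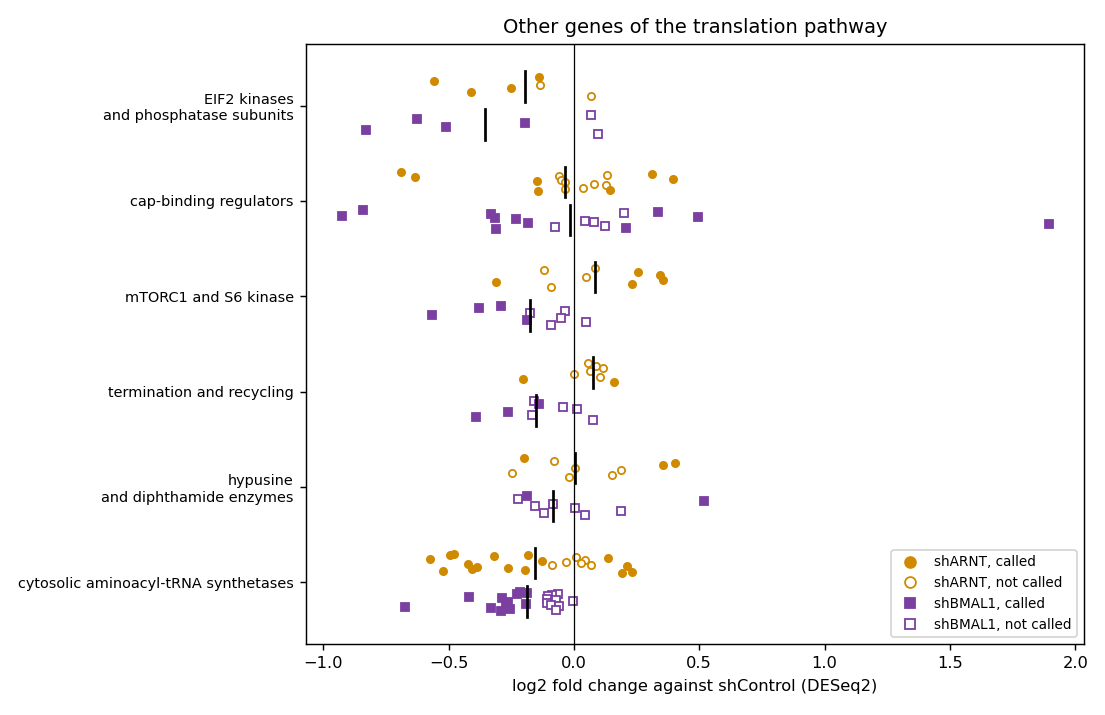
Log2 fold change against shControl (x axis, DESeq2) of the other genes of the pathway, 1 point per gene, by list, with shARNT in ochre circles and shBMAL1 in purple squares, filled where called, and the median of each list as a black bar. The mTORC1 list has 4 filled points above 0 under shARNT and 4 below 0 under shBMAL1, and the synthetase list has 12 filled points below 0 in each knockdown.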

How the data were processed

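Polyadenylated RNA from 9 libraries of 786-O cells was analysed, 3 each of shControl, shARNT and shBMAL1, grouped by the sample labels. The authors deposited estimated counts, the total reads of each gene. Per the labels the libraries were stranded. By the study's methods, read pairs were placed on GRCh37 by SeqMan NGen and ArrayStar exported the counts, whereas the submitters' processing notes name STAR, DESeq2 and hg38. The annotation, the strand setting and the treatment of reads with several matches are not given in the sources used here. The value 0.009, which filled 46.3% of the cells, was set to 0, fractional values (6.14% of the others) were rounded, and 55 rows with repeated names were merged.

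Each comparison was fitted on its own 6 libraries with DESeq2 version 1.42.0 (Wald test, median-of-ratios size factors, independent filtering at 0.1, Benjamini-Hochberg adjustment over all genes tested, two-sided) in R version 4.3.3. For normalised read counts, each library was scaled by a size factor from a joint estimate over the 9 libraries. Replicates of a group were farther apart than sampling noise allows (chi-square per degree of freedom 7.60 to 17.6), so none was counted as a copy. The labels do not say how far the replicates were grown apart, so p values measure the spread between these libraries, which was a median coefficient of variation of 5.69% over the 56 members with a mean of at least 100 counts.

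Values in every library are given for the 5 members lower and the 5 higher with the largest change in each comparison among those with a mean of at least 100, and for EEF1A1, EEF2, EIF4E, EIF4E2, EIF3E, EIF2S1, EIF4G1 and EEF2K. Up to 3 called genes per list are named for the rest of the pathway. EIF1AY is Y-linked and its level is not given here. The members and lists were chosen with earlier results of these data known. Coordinates are 1-based from GENCODE lifted to GRCh37. Alternatives were edgeR version 4.0.16 with TMM, TMM size factors in DESeq2, at least 10 counts in 3 libraries, no filter, an adjusted p under 0.05, 1 fit of all 9 libraries, the replicate number as a block, each library left out in turn, and, added after seeing the data, summed rows of loci that share reads. The fits were tested on simulated counts.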

Additional observations from a re-analysis of the deposited data

How the results depend on the processing

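The number of factor genes called stayed within 1.5 times the reported number in every alternative, at 18 to 24 for shARNT, 17 to 26 for shBMAL1 and 21 to 30 for the direct comparison. Leaving out 1 library in turn gave 18 to 24, 17 to 26 and 21 to 27. The number higher under shBMAL1, reported as 5, ran from 3 (without shBMAL1 replicate 2) to 6. With the replicate number as a block, the counts were 19, 20 and 25. Libraries of the same number did not deviate together, with correlations of their deviations between −0.154 and 0.105 over 12935 genes, so the numbers were not taken to pair the samples, and the cause of the lost calls was not tested.

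Of the calls of single genes, 16 of 23 under shARNT, 15 of 22 under shBMAL1 and 16 of 27 in the direct comparison were kept in every alternative (EIF1AY not counted). Directions turned for a few genes. EEF1AKMT1 under shARNT, which was not called, gave −0.000396 with edgeR and −0.0058 with TMM size factors. Summed rows gave −0.30 for EIF4A1 under shBMAL1 and 0.13 for EEF1E1 in the direct comparison, where the rows counted differ by construction. Without 1 library, values that were not called crossed 0 for EIF3E under shARNT (−0.0235 to 0.0513) and directly (−0.00882 to 0.0677), EEF1AKMT1 under shARNT (−0.125 to 0.129), EIF2S1 under shBMAL1 (−0.0969 to 0.0171), EIF4A1 directly (−0.455 to 0.0798) and EIF4E2 directly (−0.0378 to 0.0703).

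Few reads limit what can be said of EIF1AX, EIF4E, EIF4E3 and the EIF4A1 row. Whether depth or the assignment of reads in the counting left these rows low was not tested. Across 56 members, Spearman's rho of the fold change with GC content lay between −0.204 and −0.102 and with length between −0.189 and 0.220, given as a description only.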

Other observations

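The antisense row EIF3J-AS1, which lies beside EIF3J and was not counted among the factor genes, had 188, 179 and 197 normalised read counts in shControl, 229, 174 and 189 in shARNT, and 295, 333 and 352 in shBMAL1. The 3 shBMAL1 libraries lay above the other 6. Its log2 fold change was 0.79 under shBMAL1 (SE 0.15, DESeq2 adjusted p 1.01e-06) and 0.07 under shARNT (SE 0.17, adjusted p 0.806), with a direct difference of 0.73 (SE 0.16, adjusted p 2.76e-05). EIF3J itself rose by 0.36 under shBMAL1. How reads of the 2 strands were told apart in the counting is not given in the sources used here, and whether the values of EIF3J and EIF3J-AS1 share reads was not tested. This row was singled out after its values were seen.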
